A study of Mus musculus with 15 samples.

Results

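The genes described here are 9 costimulatory receptors and ligands, Cd28, Icos and Cd27 with the T cell ligand Cd40lg, and the partners Cd80, Cd86, Icosl, Cd70 and Cd40. They were chosen by name, and every probe whose transcript accession belonged to 1 of them was taken, which gave 12 probes out of 41003 tested and 9 genes out of 32171, where an accession without a matching symbol counts as a gene of its own. Cd86, Icos and Icosl had 2 probes each and the other members 1, and each gene was described through its brightest probe, with the second probe beside it.

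The data were 15 arrays read in 1 colour, from male mice in 5 groups of 3. The cardiac allografts were hearts of C57BL/10 (B10) donors placed with their vessels in the abdomen of CBA recipients, in addition to the recipient's own heart, and were taken at postoperative day 5 (POD5). The hepatic allografts were livers of B10.BR donors that replaced the liver of B10.D2 recipients, taken at POD5 or at POD8. The cardiac and hepatic controls are called normal tissue in the labels and the methods and isografts in the results of the study, their strain is not given in the sources used here, and the POD5 and POD8 allografts of the liver share the same 3 controls. Donor and recipient strain therefore changed together with the organ, and a graft holds both donor tissue and the recipient cells that entered it. No treatment is named for any group. The sources do not say whether each array held the RNA of 1 animal, so the P-values below measure the spread between these arrays.

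T cells answer an antigen fully only when a second, costimulatory signal accompanies that of the T cell receptor. CD28 on the T cell supplies it by binding CD80 or CD86 on antigen-presenting cells, and ICOS, a relative of CD28 that appears on activated T cells, binds ICOSL. A separate family, related to the tumour necrosis factor receptor, includes CD40, which is carried by B cells, dendritic cells and macrophages and is engaged by CD40 ligand on helper T cells, and CD27, which is carried by T cells and engaged by CD70. Blocking CD28 or CD40 ligand prolongs the survival of transplants in animals, which is why these pairs are studied in rejection.

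Of the 9 members, 7 were measured and 2 were not. The probes of Cd40lg and Cd70 stayed at background level on all 15 arrays, as did the second probe of Icosl. Cd40lg encodes the ligand of CD40 and its normalized log2 signal lay between 1.2 and 1.41 on every array. Cd70 encodes the ligand of CD27, and its normalized log2 signal lay between 1.12 and 3.44. No level can be given for them, and no statement on the ligands follows from a dim probe. The remaining 7 were well above background on all 3 arrays of both cardiac groups and of the hepatic POD8 allografts, and 6 of them on all 3 of the hepatic POD5 allografts. In the hepatic controls only Icos and Icosl were above background on all 3 arrays, while Cd28 and Cd80 were above it on none. Every value below is a normalized log2 signal or a difference of such signals, in which 1 unit is a doubling, unless a processed signal before normalization is named.

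Promoter sequences were held by the RefSeq tables used here for 3 of the 9 members. All 3 are shown, since no others were available. Of these genes, Cd27 had the largest difference of the members in all 3 comparisons with controls, and Cd80 did not pass the test in the heart. Each is the 250 bases before the transcription start, written 5′ to 3′ on the strand of the gene with RefSeq coordinates of the mouse assembly GRCm38.p6, and capitals mark a motif match. The Cd27 promoter is chr6:125237028-125237277 on the minus strand, the Cd80 promoter chr16:38458683-38458932 on the plus strand and the Icosl promoter chr10:78069118-78069367 on the plus strand.
Cd27: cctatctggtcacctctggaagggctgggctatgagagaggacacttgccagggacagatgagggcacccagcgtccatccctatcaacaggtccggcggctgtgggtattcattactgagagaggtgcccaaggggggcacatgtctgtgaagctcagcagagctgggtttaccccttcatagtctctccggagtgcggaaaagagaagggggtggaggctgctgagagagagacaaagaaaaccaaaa
Cd80: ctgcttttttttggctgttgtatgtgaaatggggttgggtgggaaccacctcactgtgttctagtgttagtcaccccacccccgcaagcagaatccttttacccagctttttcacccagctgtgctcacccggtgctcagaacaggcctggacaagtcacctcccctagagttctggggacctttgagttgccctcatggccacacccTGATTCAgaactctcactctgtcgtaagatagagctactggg
Icosl: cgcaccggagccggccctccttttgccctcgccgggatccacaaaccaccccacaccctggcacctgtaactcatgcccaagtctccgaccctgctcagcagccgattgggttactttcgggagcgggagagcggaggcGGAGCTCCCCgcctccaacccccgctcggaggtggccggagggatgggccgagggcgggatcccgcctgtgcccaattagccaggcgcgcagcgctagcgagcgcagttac

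Both strands were searched for the NF-kB motif, the interferon-gamma activated sequence TTCNNNGAA, the core of the interferon-stimulated response element and the AP-1 motif TGANTCA. Among all 32851 promoters of this length, 7.25% held the NF-kB motif, 7.02% TTCNNNGAA, 2.98% that core and 6.75% TGANTCA. The Cd80 promoter held the AP-1 letters from base -42 to base -36 before the start. The Icosl promoter held an NF-kB match from base -111 to base -102, read on its other strand. None of the 4 motifs was found in the Cd27 window, and the matches are descriptions of letters, not of binding.

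The arrays differed in brightness between groups. The 75th percentile of the processed signal was 394 to 710 in the cardiac allografts and 1020 to 1250 in the cardiac controls, but 338 to 478 and 384 to 454 in the hepatic allografts at POD5 and POD8 and 92.1 to 226 in the hepatic controls. Quantile normalization sets these differences aside, and the members that depend on it are named below. The labelled tissues matched their defining markers, with a summed level of 5 cardiomyocyte genes of 692000 to 990000 in hearts against 407 to 1700 in livers, and of 4 hepatocyte genes of 342000 to 447000 in livers against 17.3 to 27 in hearts. No slide held both cardiac groups, and none held both hepatic POD5 allografts and hepatic controls, which makes the slide and the graft status inseparable in these comparisons. The slide of the cardiac allografts also held 1 hepatic POD5 array. Over all probes, 5433 were higher and 6288 lower in the cardiac allografts, against 15223 and 5448 after scaling to the 75th percentile, which moved the median of all probes by 0.45. For the liver the counts were 3329 higher and 2878 lower at POD5 against 3010 and 6333 after that scaling, and 2880 and 1907 at POD8 against 2879 and 11012, with shifts of -0.30 and -0.37.

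In cardiac allografts at POD5, 6 of the 9 members were higher than in cardiac controls and none was lower by limma at an adjusted P-value under 0.05. Among all genes, 13.6% were called higher. The 6 were Cd27, Icos, Cd40, Cd28, Cd86 and Icosl, and Cd80 did not pass. The median difference of the 9 members was 1.12, beside 0.03 for all genes. On the brightest probes, the receptors of the T cell and Cd40 moved most and the ligands on antigen-presenting cells by 1.12 or less. The second probe of Cd86 gave 1.76, beside 1.99 for Cd28.

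**Figure D1:**
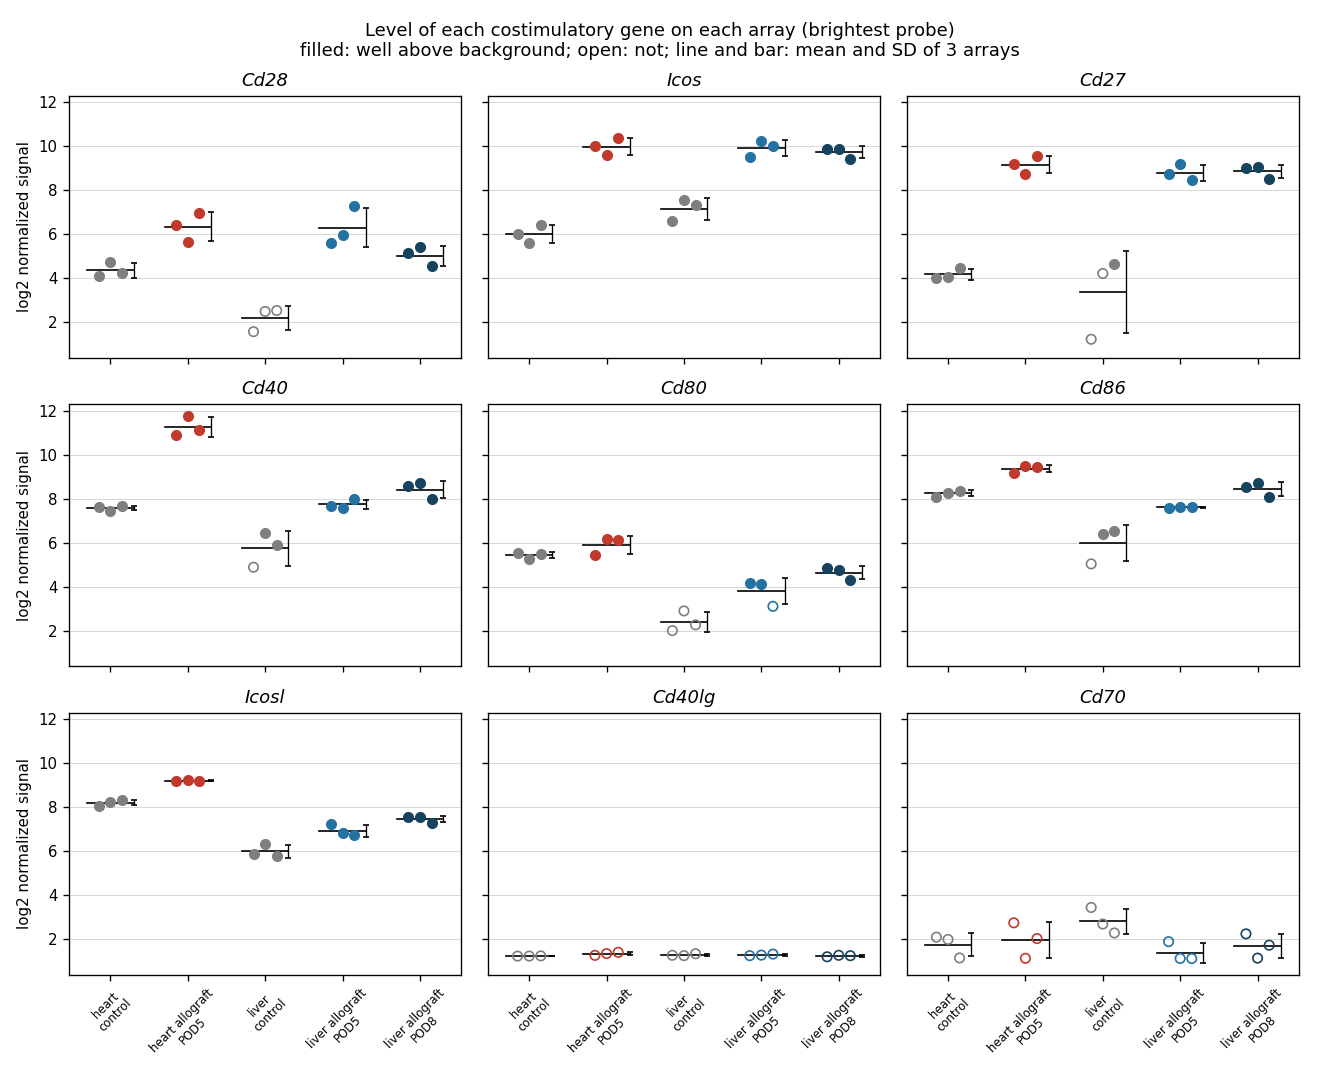
Normalized log2 signal of the brightest probe of each of the 9 members on each of the 15 arrays, by group, with filled circles for arrays where the probe was well above background, open circles for the others, and a line and bar for the mean and SD of 3 arrays. Cd27 and Icos sit at similar heights in all 3 allograft groups, Cd40 is highest in the cardiac allografts, and Cd40lg and Cd70 are open on every array.

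Cd27, a receptor that sustains T cells after activation, had log2 signals of 9.21, 8.76 and 9.56 in cardiac allografts and of 4.0, 4.08 and 4.48 in cardiac controls. The groups did not overlap, and the difference was 4.99 ± 0.67 (SE), or 31.7-fold, with an adjusted P-value of 2.1e-04. Cd27 was also in a gene list that the study chose on these samples, so its direction is not independent evidence for that list. The study also measured Cd27 by quantitative RT-PCR and reported more of its mRNA in cardiac and hepatic allografts than in isografts. That assay was not analysed here.

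Icos, which marks activated T cells and helps follicular helper T cells to form, had log2 signals of 10.00, 9.59 and 10.38 in cardiac allografts and of 6.01, 5.62 and 6.42 in controls. The allografts were all higher, by 3.97 ± 0.31 (SE) or 15.7-fold, with an adjusted P-value of 3.6e-06. Its second probe gave 3.21 with an adjusted P-value of 4.7e-06, so both probes passed in the same direction.

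Cd28, the constitutive costimulatory receptor of T cells, had log2 signals of 6.44, 5.66 and 6.96 in cardiac allografts and of 4.10, 4.74 and 4.26 in controls. The lowest allograft was still above the highest control. The difference was 1.99 ± 0.46 (SE), or 3.96-fold, with an adjusted P-value of 0.0066. With the slide as a random block it was 1.75 with an adjusted P-value of 0.061 by limma.

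Cd40, the receptor through which helper T cells license antigen-presenting cells, had log2 signals of 10.91, 11.77 and 11.11 in cardiac allografts and of 7.62, 7.46 and 7.67 in controls. Every allograft was above every control, with a difference of 3.68 ± 0.35 (SE), or 12.8-fold, and an adjusted P-value of 1.8e-05.

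Cd86 and Cd80 encode the shared ligands of CD28 and of its inhibitory counterpart CTLA4. Cd86 had log2 signals of 9.18, 9.48 and 9.44 in cardiac allografts and of 8.10, 8.28 and 8.36 in controls, a difference of 1.12 ± 0.32 (SE) or 2.17-fold with an adjusted P-value of 0.020. Its second probe gave 1.76 with an adjusted P-value of 0.049. The call rested on 3 arrays in turn, since the adjusted P-value was 0.057 without the second allograft, 0.058 without the third and 0.064 without the first control. With the slide as a random block it was 0.097 by limma.

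Cd80 had log2 signals of 5.45, 6.18 and 6.12 in cardiac allografts and of 5.56, 5.27 and 5.51 in controls. The groups overlapped, and the difference of 0.47 ± 0.32 (SE) did not pass, with an adjusted P-value of 0.31 and a 95% interval from -0.23 to 1.17. An increase as large as that of Cd86 lies within that interval.

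Icosl, the ligand of ICOS that endothelial cells and B cells also carry, had log2 signals of 9.20, 9.24 and 9.18 in cardiac allografts and of 8.07, 8.24 and 8.33 in controls. The difference of 0.99 ± 0.17 (SE), or 1.98-fold, was small but larger than the spread, with an adjusted P-value of 0.0012. Its second probe was below background throughout.

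For Cd86 and Icosl the increase in the heart came with the normalization. The processed signals of Cd86 before normalization were 898, 650 and 1090 in cardiac allografts and 771, 709 and 788 in controls, and those of Icosl were 910, 544 and 905 against 756, 689 and 773. These overlap, and without normalization the differences were 0.19 for Cd86 and 0.05 for Icosl. Cd27, Icos, Cd28 and Cd40 were called higher without normalization as well.

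In hepatic allografts at POD5, 7 of the 9 members were higher than in hepatic controls and none was lower, beside 7.89% of all genes called higher. These were all 7 measured members, Cd80 included, and the median of the 9 was 1.62 beside -0.08 for all genes. When only the 6 arrays of this comparison were normalized and fitted, 3 of the 7 passed, namely Cd28, Icos and Cd27.

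**Figure D2:**
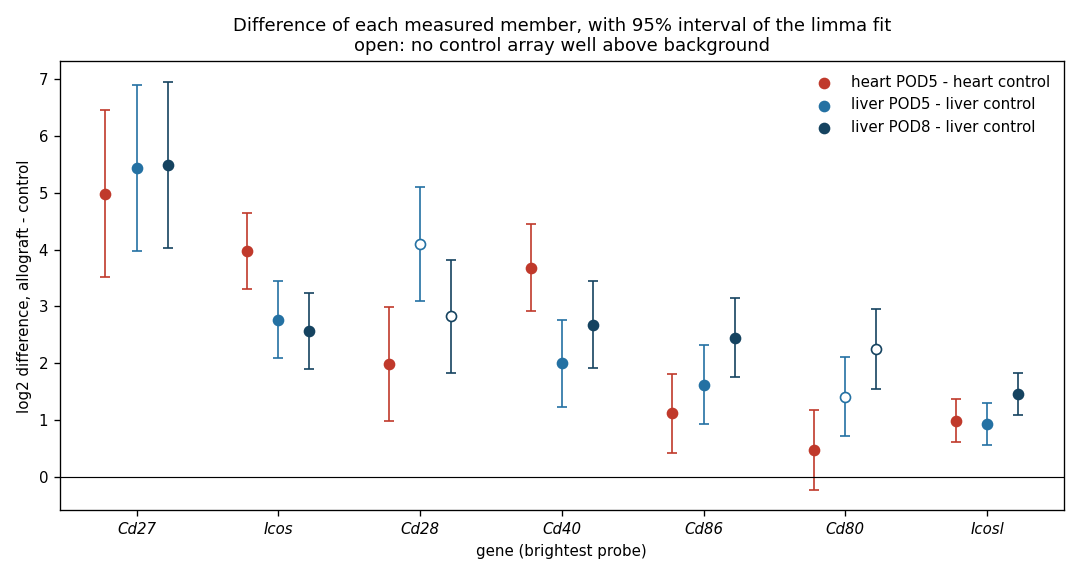
Log2 difference between allografts and controls for the 7 measured members in the POD5 heart and in the liver at either time, with the 95% interval of the limma fit as bars and open circles where no control array was well above background. The interval of Cd80 in the heart, from -0.23 to 1.17, is the only one that includes 0.

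Cd27 had log2 signals of 8.74, 9.19 and 8.49 in hepatic allografts at POD5 and of 1.23, 4.22 and 4.66 in hepatic controls, of which the third alone was above background. The difference was 5.43 ± 0.67 (SE) with an adjusted P-value of 2.8e-04. Because 2 of the 3 controls had only a dim signal, the size of the difference is less certain than its direction. Icos had log2 signals of 9.52, 10.26 and 10.03 against 6.60, 7.58 and 7.33, all above background, and a difference of 2.77 ± 0.31 (SE) or 6.81-fold with an adjusted P-value of 1.3e-04. Its second probe gave 2.87 with an adjusted P-value of 2.8e-05.

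Cd28 had log2 signals of 5.63, 5.99 and 7.30 in hepatic allografts at POD5, while the 3 controls, at 1.58, 2.50 and 2.54, were not well above background. The fitted difference was 4.10 with an adjusted P-value of 1.3e-04. Against the mean over the control arrays of the lowest signal above background, Cd28 was at least 3.93-fold higher. The control level of Cd28 in the liver is therefore known only as an upper limit.

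Cd40 had log2 signals of 7.68, 7.56 and 7.99 in hepatic allografts at POD5 and of 4.89, 6.44 and 5.92 in controls, the first of them not above background. The difference was 2.0 ± 0.35 (SE), or 4.0-fold, with an adjusted P-value of 0.0027. Cd86 had log2 signals of 7.59, 7.64 and 7.62 against 5.04, 6.41 and 6.54, again with the first control below background. It differed by 1.62 ± 0.32 (SE) or 3.07-fold, with an adjusted P-value of 0.0054, and its second probe by 1.97 with 0.049.

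Icosl rose by 0.93 ± 0.17 (SE), with log2 signals of 7.24, 6.83 and 6.72 in the allografts and of 5.88, 6.33 and 5.79 in controls and an adjusted P-value of 0.0038. Cd80 had log2 signals of 4.18, 4.13 and 3.11, with the third allograft not above background, and controls at 2.01, 2.90 and 2.27 that were not above background either. It passed with a fitted difference of 1.41 and an adjusted P-value of 0.012. The allograft mean did not exceed the mean over the control arrays of the lowest signal above background, so no fold is given, and the call was lost without the first allograft and with another background correction.

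In hepatic allografts at POD8, the 7 measured members were again all higher than in controls, beside 6.64% of all genes called higher. The median of the 9 members was 2.45, beside -0.11 for all genes, and 1.46 with Cd28 and Cd80 set to their lower bounds and Cd40lg and Cd70 to 0. POD5 and POD8 share their controls, so the values are given side by side and not counted as a repeat.

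Cd27 had log2 signals of 9.02, 9.06 and 8.51 at POD8 and a difference of 5.49 from controls, with an adjusted P-value of 3.0e-04. Icos had 9.89, 9.88 and 9.44 and a difference of 2.57 or 5.94-fold, with an adjusted P-value of 2.7e-04. Cd28 had 5.14, 5.41 and 4.54 and a fitted difference of 2.82, with an adjusted P-value of 0.0020. Its controls were below background, and the lower bound was 1.62-fold, which was not itself tested. All 3 receptors of the T cell were thus called higher at both times, Cd28 against controls below background. With normexp background correction, however, the POD8 difference of Cd28 was 0.59 and did not pass in limma (adjusted P-value 0.11).

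Cd40 had log2 signals of 8.59, 8.70 and 7.98 at POD8, and differed from controls by 2.68 or 6.39-fold with an adjusted P-value of 4.8e-04. Cd86 had 8.53, 8.70 and 8.10 and differed by 2.45 or 5.45-fold with an adjusted P-value of 4.5e-04. Cd80 had 4.83, 4.78 and 4.30, all above background, and a fitted difference of 2.25 with an adjusted P-value of 8.6e-04. Its lower bound against controls below background was 1.24-fold, again without a test of the bound. Icosl had 7.54, 7.54 and 7.29 and differed by 1.46 or 2.75-fold with an adjusted P-value of 2.4e-04.

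Of the 6 slides, 1 held 2 hepatic POD8 allografts together with 2 hepatic controls. On that slide alone the differences were 6.31 for Cd27, 3.24 for Cd28, 2.98 for Cd40, 2.89 for Cd86, 2.80 for Icos, 2.35 for Cd80 and 1.44 for Icosl. All were positive, but with 2 arrays against 2 none passed, with adjusted P-values from 0.097 to 0.15, and no probe of any gene did.

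Between POD5 and POD8, none of the 9 members passed the test, and 12 of all genes did (0.0373%). At an unadjusted P-value under 0.05, 4 of the 7 measured members differed by limma, beside 9.28% of all probes. Cd28 was lower at POD8 by 1.28 on the log2 scale, and Cd80 was higher by 0.83, Cd86 by 0.83 and Icosl by 0.53. In each of these 4 the groups did not overlap, which held for 8.81% of all genes in the higher and 11.2% in the lower direction, and their adjusted P-values were 0.42, 0.45, 0.45 and 0.38. For Cd27, Icos and Cd40 the 95% intervals were -1.40 to 1.52, -0.87 to 0.48 and -0.09 to 1.44.

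Whether the difference at POD5 was itself different between the organs was tested as an interaction in the fit of the 5 groups. Cd40 passed, with a cardiac difference larger than the hepatic one by 1.68 ± 0.50 (SE) and an adjusted P-value of 0.036. Cd28 passed in the other direction, with -2.12 ± 0.65 (SE) and 0.042. Among all genes 8.97% were called in the first and 9.17% in the second direction, so that 1 of 9 members in each is near the background. The Cd28 result rests on hepatic controls below background, since the lower bound in the liver (3.93-fold) and the fitted cardiac difference (3.96-fold) are close. Leaving out 1 array at a time, Cd40 passed in 3 of 12 fits, those without the first cardiac allograft, the third hepatic allograft or the first hepatic control. Cd28 passed in 4 of 12, those without the third cardiac allograft, the first hepatic allograft or the second or the third hepatic control. Neither of them passed when the 12 arrays were normalized and fitted alone. Icos had an interaction of 1.2 (0.076) on its brightest probe and of 0.34 (0.55) on its second. The 95% intervals of Cd27, Cd80, Cd86 and Icosl were -2.51 to 1.62, -1.93 to 0.05, -1.48 to 0.48 and -0.47 to 0.59.

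The members were next compared between the organs. In controls, Cd80, Icosl, Cd86, Cd28 and Cd40 were higher in the heart than in the liver and Icos was lower, which is 5 and 1 of 9 members beside 25.8% and 27.5% of all genes. Icosl differed by 2.21, with an adjusted P-value of 4.0e-07, Cd86 by 2.25 with 7.1e-05 and Cd40 by 1.83 with 7.8e-04. Cd80 and Cd28 were at least 2.16-fold and 1.03-fold higher in the heart. Icos was lower in the heart by 1.15 on its brightest probe, with an adjusted P-value of 0.0073, while its second probe gave 0.21 and did not pass. Its direction also turned under 2 other normalizations. Strain changed with the organ in these comparisons and cannot be told apart from it. The controls of heart and liver shared no slide, while 1 slide held the 3 cardiac POD5 allografts and the third hepatic one. On that slide the cardiac mean minus the hepatic array was 3.27 for Cd40, 2.81 for Cd80, 2.48 for Icosl and 1.75 for Cd86, values of 3 arrays against 1 with no test, chosen after the data were seen. Cd27 was at 0.69, Icos at -0.04 and Cd28 at -0.94 there.

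At POD5, Cd40, Icosl, Cd80 and Cd86 were higher in cardiac than in hepatic allografts, 4 of 9 members beside 18.5% of all genes. The differences were 3.52 for Cd40, 2.27 for Icosl, 2.11 for Cd80 and 1.75 for Cd86, with adjusted P-values of 6.1e-06, 4.8e-07, 2.3e-04 and 8.9e-04. The 3 receptors of the T cell did not pass. Cd27 differed by 0.37 with a 95% interval from -1.09 to 1.83, Cd28 by 0.05 from -0.95 to 1.05 and Icos by 0.05 from -0.62 to 0.73. The second probe of Icos gave 0.55 from -0.01 to 1.11, with all cardiac arrays above the hepatic ones, and did not pass either.

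For Cd27 and Icos the 3 allograft groups came first and neighbours among them did not differ. For Cd27 the step to the cardiac controls was 4.62, with an adjusted P-value of 1.1e-04, and the cardiac and hepatic controls did not pass. For Icos the step was 2.57 to the hepatic controls, followed by the cardiac controls on the brightest probe. Cd28 ran from the cardiac allografts through the hepatic allografts at POD5 and POD8 to the cardiac controls without a step that passed, and then to the hepatic controls with 2.17 and an adjusted P-value of 0.0016. Icosl was the one member for which both cardiac groups, controls included, lay above all hepatic groups with every step except that between POD8 and POD5 past the test. Cd80 had both cardiac groups first as well, but the step from cardiac controls to hepatic POD8 did not pass (0.061). Cd86 and Cd40 were highest in the cardiac allografts, 0.92 and 2.84 above the hepatic POD8 allografts with adjusted P-values of 0.040 and 3.9e-05. The second probe of Cd86 gave 1.16 for this step and did not pass by limma (adjusted P-value 0.18).

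T cell markers rose with the T cell receptors. In bulk tissue, fewer cells of a type and less RNA per cell cannot be told apart. All 6 T cell markers (Cd3d, Cd3e, Cd3g, Cd5, Cd8a and Cd4) were higher in cardiac allografts. In hepatic allografts 4 of 6 were higher at either time, where Cd3e and Cd4 did not pass. The summed level of the 6 was 8640 to 14000 in cardiac allografts and 349 to 544 in cardiac controls. In the liver it was 6250 to 9990 at POD5, 5640 to 7140 at POD8 and 434 to 477 in controls.

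To set the receptors beside the T cell content, the mean log2 signal of Cd3d, Cd3e and Cd3g on the same array was subtracted. Only changes between groups can be read from this difference. In the heart, Cd28 was -1.84 ± 0.39 (SD, n = 3) in controls and -3.65 ± 0.42 in allografts, a difference of -1.80 without overlap. Icos, on its brightest probe, was -0.19 ± 0.36 in controls and -0.01 ± 0.18 in allografts and overlapped. Its second probe rose less in the heart, by 3.21 beside 3.97, and was not set against the CD3 chains, so the overlap holds for the brightest probe only. Cd27 was -2.02 ± 0.11 in controls and -0.83 ± 0.19 in allografts, a difference of 1.19 without overlap. The size of these differences depends on the chains used. From cardiac controls to allografts, mean log2 signals rose from 7.331 to 12.006 for Cd3d and from 6.293 to 10.312 for Cd3g. Cd3e rose only from 5.004 to 7.696, and Cd27 itself from 4.188 to 9.175, little more than Cd3d. Of the other T cell markers, Cd8a rose more than Cd27, from 5.758 to 11.779, Cd5 about as much and Cd4 less. Against Cd8a alone the Cd27 difference would turn. Two-sided exact permutation tests gave 0.10 for Cd28, 0.60 for Icos and 0.10 for Cd27, and 0.10 is the smallest value that 3 arrays against 3 can give.

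In the liver, Icos relative to the CD3 chains was 1.13 ± 0.05 (SD, n = 3) in controls, 0.08 ± 0.22 at POD5 and 0.19 ± 0.21 at POD8. Both allograft groups lay below the controls without overlap, with an exact permutation P-value of 0.10 each. Cd28 and Cd27 were below background on all or most hepatic control arrays and are not compared there, and Cd3g was above background on 2 of the 3. Of the 3 CD3 chains, Cd3e moved least in the liver, by 0.74 at POD5 (limma adjusted P-value 0.069), which is less than the 2.77 of Icos. Cd3d and Cd3g rose more than Icos, from 6.5 to 11.7 and from 4.4 to 9.9. The direction of the Icos difference in the liver therefore depends on the chains used, and it would turn against Cd3e alone.

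**Figure D3:**
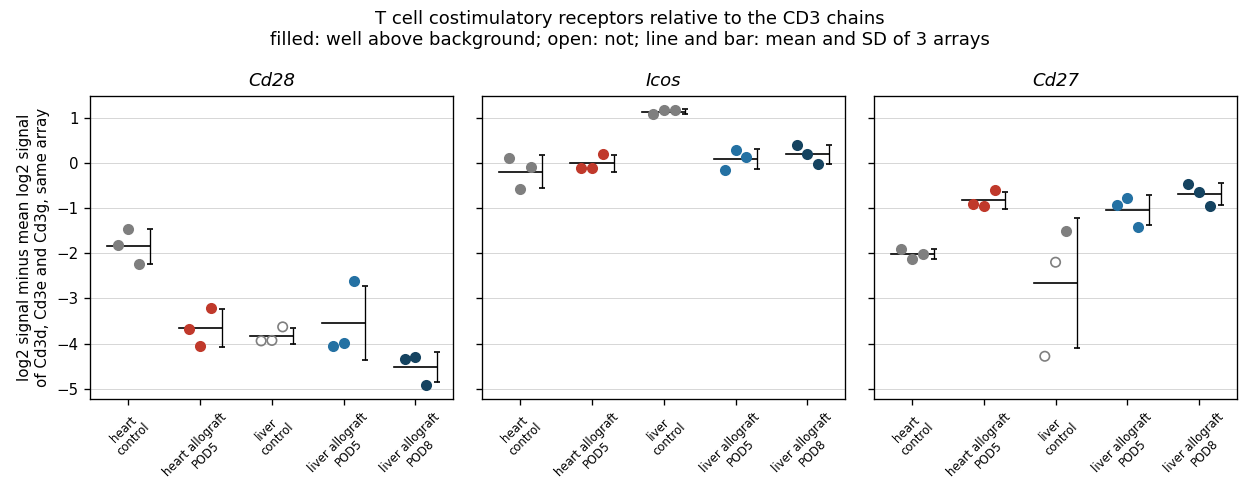
Log2 signal of Cd28, Icos and Cd27 minus the mean log2 signal of Cd3d, Cd3e and Cd3g on the same array, for the 15 arrays by group, with a line and bar for the mean and SD of 3 arrays and open circles where the receptor was not well above background. The cardiac means are -1.84 in controls and -3.65 in allografts for Cd28 and -2.02 and -0.83 for Cd27. All cardiac values of Icos, on its brightest probe, lie between -0.59 and 0.20.

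Markers of the cells that can carry CD40 and the ligands were counted in the same way. Of 5 B cell markers, none was called in the liver at either time, and their summed levels in the heart were 350 to 781 in cardiac allografts against 552 to 1650 in cardiac controls. Of 5 dendritic cell markers measured, Itgax and Xcr1 were higher and Cd209a and Zbtb46 lower in cardiac allografts, Cd209a being below background there, and only Itgax was higher in the liver, by 3.47 at POD5 and 3.98 at POD8. Their sums were 1440 to 3120 against 577 to 893 in the heart, and 1220 to 1720 at POD5, 1840 to 2040 at POD8 and 419 to 512 in controls of the liver. Of 4 macrophage markers, none was called in the heart or in the liver at POD5, and Csf1r and Adgre1 were higher at POD8, by 1.76 and 1.64. Their sums were 18400 to 23300 in cardiac allografts against 18500 to 26700, and 10400 to 16200, 18100 to 18500 and 2650 to 9270 in hepatic POD5, POD8 and control tissue. Of 4 endothelial markers 3 were lower in cardiac allografts, and their sums were 1470 to 2570 against 5780 to 6610. Of 4 markers of platelets, which store CD40 ligand, 3 were lower in cardiac allografts, with sums of 1070 to 3580 against 18300 to 20800. In the liver no endothelial or platelet marker was called at POD5, and 1 of 4 of each was higher at POD8, namely Pecam1 by 1.68 and Gp1ba, which was below background in hepatic controls. Endothelial sums were 2900 to 4780 at POD5, 3220 to 3580 at POD8 and 2560 to 3580 in hepatic controls, and platelet sums were 494 to 773, 669 to 958 and 502 to 835. The part of these cells in the ligand levels was not tested.

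The molecules that relay the CD28 and ICOS signal rose in part. Of 12 measured genes of this list, 7 were higher in cardiac allografts and 6 in hepatic allografts at either time, and none was lower. The median difference was 1.67, 1.27 and 1.18. Beside this list and those below, 13.6% of all genes were called higher in the heart. In the liver it was 7.89% at POD5 and 6.64% at POD8. The medians of all genes were 0.03, -0.08 and -0.11. The largest difference of this list was that of Lck, with 4.97, 4.84 and 4.24. Lck is the kinase that starts T cell receptor and CD28 signalling and is made mainly by T cells.

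Of 12 measured genes that relay CD40 and CD27 signals, 8 were higher in cardiac allografts, 4 in hepatic ones at POD5 and 3 at POD8, again with none lower and medians of 0.70, 0.41 and 0.24. Traf1, an adaptor of these receptors that NF-kB itself induces, was the highest in all 3 comparisons, with 2.77, 2.39 and 2.57. Traf5, an adaptor of CD40 and CD27, was next in the heart with 1.35, Birc3, a ubiquitin ligase bound by TRAF proteins, at POD5 with 1.02, and Relb, a subunit of the noncanonical NF-kB pathway, at POD8 with 1.23.

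Other costimulatory pairs were counted in the same way. Of 12 genes of this list, 9 were higher in cardiac allografts, 7 in hepatic ones at POD5 and 8 at POD8, with medians of 2.56, 3.05 and 2.89. In the liver 6 of the 12 were below background in a group, and with these at their bounds the medians were 1.06 and 0.74. Tnfrsf9, which encodes the activation-induced receptor 4-1BB, had the largest difference of the list in the heart, with 4.72. In the liver, where its controls were below background, its lower bounds were 8.57-fold (POD5) and 8.36-fold (POD8). Cd2, an adhesion receptor of T cells, followed in the heart with 4.17, and Slamf6, a receptor of lymphocytes, in the liver with 4.90 and 4.51. Ctla4, the inhibitory receptor that competes with CD28 for CD80 and CD86, was named for that role after its values were seen. It was higher by 3.95 in the heart, where 1 of 3 controls was above background, and at least 2.44-fold and 1.45-fold higher in the liver at POD5 and POD8.

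Among 7 measured genes that costimulation is known to raise, 4 were higher in cardiac allografts, 4 in hepatic ones at POD5 and 3 at POD8. Their medians were 1.80, 1.73 and 1.75, and 0.85, 0.00 and 0.01 with genes below background in a group at their bounds. Ifng, which encodes interferon-gamma, differed by 10.55, 5.79 and 6.19, and Tbx21, the transcription factor of type 1 helper and cytotoxic T cells, by 4.72, 4.05 and 3.20. Bcl2l1, a survival gene induced through CD28, was the only one lower, by 0.56 on the log2 scale in the heart with an adjusted P-value of 0.033. Il2, named for its role as the classical target of CD28, differed by 0.11 in the heart and did not pass. Its probe was dim, above background on 1 of the 3 cardiac allografts and on all 3 cardiac controls, so its level in the allografts is uncertain.

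**Figure D4:**
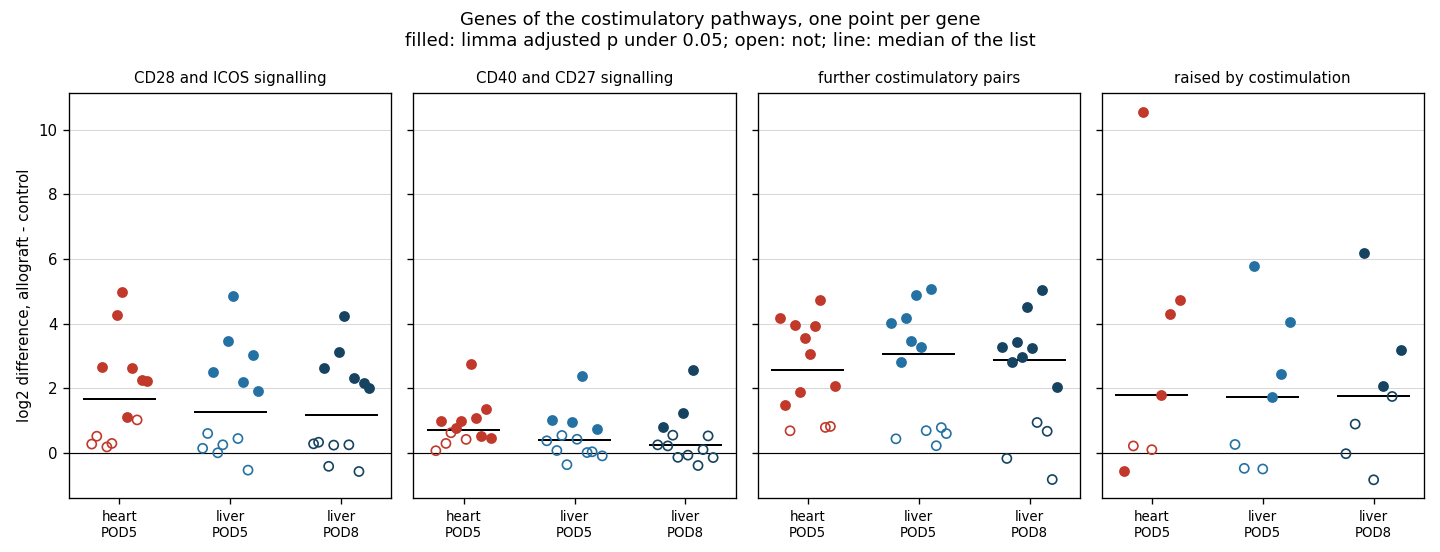
Log2 difference between allografts and controls for each gene of 4 lists around the members, in the POD5 heart and in the liver at either time, with filled circles for genes past the limma test, open circles for the others and a line at the median of the list. The medians of the further costimulatory pairs, 2.56, 3.05 and 2.89 as fitted, lie above those of the CD40 and CD27 signalling genes, 0.70, 0.41 and 0.24.

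The genes whose pattern over the 15 arrays was most like that of a member were found by the root mean square of the difference of centred log2 signals, as a description among 22406 genes. Icos was most like Sla2 (0.292) and Rasgrp1 (0.323), against a spread of 1.69 of its own about its mean. Cd27 was most like Cd3g, a chain of the CD3 complex (0.594 against 2.65), and Cd28 like Coro1a (0.452), Epsti1 (0.516) and Spdl1 (0.522) against 1.60. Cd80 was most like Klhl6 (0.310), BC064078 (0.344) and C5ar1 (0.374) against 1.30, and Cd86 like Tlr6 (0.264), Lrrc8c (0.276) and Csf2rb2 (0.279) against 1.17. Icosl was most like Stx7 (0.269), Dapp1 (0.296) and Arid5a (0.297) against 1.1. Cd40 was most like Gpr84 (0.384), Smpdl3b (0.418) and Klrg1 (0.474) against 1.83. Nearest entries without a symbol are left out.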

How the data were processed

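Gene expression was measured by single-colour Agilent arrays in 15 mouse samples, 3 in each of 5 groups taken from the sample titles. The authors deposited for each of 43379 spots an intensity on the linear scale (the processed signal) made with Agilent Feature Extraction 10.5.1.1, which subtracts a local background and keeps dim signals above 0. Arrays were not normalized to each other at that stage. Here the log2 of it was taken, 47 to 113 spots per array that the software had marked as outliers were removed (0 were saturated), the spots of a probe were averaged (10 for Cd28 and Cd40, 1 for the other members), and the 15 arrays were quantile normalized. This assumes that groups share a distribution. Symbols came from matching the systematic names in the files to RefSeq accessions (26690 of 41174 probes). A probe counted as above background where at least 0.5 of its spots carried the software's mark for it, which held for 52.5% to 70.5% of probes.

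One limma fit of 5 groups (limma 3.58.1, R 4.3.3, data.table version 1.17.8) was tested over 41003 probes with Benjamini-Hochberg adjustment at 0.05. Where no array of a group had a probe above background, a fold was given as a lower bound against the mean over its arrays of the higher of the probe's own signal and the array's lowest signal above background. The smallest exact permutation P-value for 3 against 3 arrays is 0.10. Beside the members, the genes named were the 2 with the largest difference in each direction of each pathway list and the nearest genes by likeness. Ctla4 and Il2 were named for their roles. Some genes that this rule or the marker lists would name are not reported here. The members and lists were chosen with earlier results of these data known. On data simulated for the 3 comparisons with controls, over 41003 probes with 200 changed by a log2 difference of 3, the fit called 177, 175 and 175 of the changed probes and 20, 15 and 20 unchanged ones. The simulated noise was independent and normal, without differences in brightness or slide and with few changed probes. These counts therefore check the working of the fit and do not measure the error of the calls in these data. Fyn, Nfkb1, Il12b, Clec9a, Cd68 and Serpina1a of the lists were not analysed here. Precision is limited by the number of arrays. The replicate numbers did not pair the arrays (correlation of deviations -0.12 to 0.04). The alternatives are given in the closing section, and those without normalization and on 1 slide alone were chosen after seeing the data. Promoters and motifs were also chosen then. Python 3.11.15 with matplotlib 3.10.9 made the plots.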

Additional observations from a re-analysis of the deposited data

Results flagged for a closer look

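In the fit of the 5 groups, 10 of the 52 members and pathway genes had a POD5 difference from controls that differed between heart and liver by the limma interaction. In the members these were Cd40, with 1.68 (cardiac minus hepatic difference on the log2 scale), and Cd28, with -2.12. Among the further costimulatory pairs, Tnfrsf4, which encodes OX40, had 3.25, since it differed by 3.94 in the heart and by 0.70 in the liver, where it did not pass. Its hepatic controls were widely spread, from 7.73 to 10.08, around the hepatic POD5 allografts at 9.13 to 9.48. Tnfsf9, the ligand of 4-1BB, had 1.46, with both hepatic groups below background at POD5. Cd48, the ligand of CD2 in mice, had -2.12, with 0.69 in the heart, where it did not pass, and 2.82 in the liver, and Slamf1 had -1.55, with hepatic controls below background. Of the relay genes, Rela had 1.13 and Traf2 1.07, both higher in the heart and not called in the liver. Ifng had 4.76, and Bcl2l1 had -0.83. By direction, 6 genes (11.5%) were called in the first and 4 (7.69%) in the second, shares near the 8.97% and 9.17% of all genes. Donor and recipient strain changed with the organ and cannot be told apart from it, and the slides held 1 organ each apart from the slide with 3 cardiac arrays and 1 hepatic POD5 array.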

How the results depend on the processing

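In each comparison with controls, the measured members kept their positive direction under every alternative run, apart from Cd80 in the heart, which was at -0.22 without normalization. The calls depended on the threshold and on which arrays were fitted. The numbers of members called higher and of all probes called were as follows. With Bonferroni adjustment of the limma P-values they were 2 and 942 in the heart, 0 and 379 in the liver at POD5, and 0 and 326 at POD8. With the standardized fold change and Bonferroni adjustment, both used in the study, they were 1 and 241, 1 and 345, and 1 and 355, and the member was Cd27 each time. With the methods' t-test they were 0 and 19, 0 and 6, and 0 and 14 after Bonferroni adjustment, and in the liver 0 and 231 at POD5 and 0 and 824 at POD8 after Benjamini-Hochberg adjustment, where 7 members each had an unadjusted P-value under 0.05. With the arrays of a comparison normalized and fitted alone they were 3 and 1506 at POD5, and 2238 probes were called at POD8. On the shared slide they were 0 and 0 at POD8.

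With 75th percentile scaling 20671 probes were called in the heart, 9343 at POD5 and 13891 at POD8, with 1 member called lower at POD5 and 2 at POD8, all of them below background, and Cd40lg and Cd70, also below background, called higher in the heart. With the slide as a random block 7226 probes were called in the heart and 3584 in the liver at POD5, and without normalization 19532 at POD5 and 18768 at POD8. With another background correction (normexp) Cd80 was lost at POD5, with 0.13, and Cd28 at POD8, with 0.59. Between POD8 and POD5 the probes called were 6 with Bonferroni adjustment, 7 with normexp, 6 with the slide as a random block, 3 without normalization and 0 when fitted alone.

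In the interaction, members called higher in the heart than in the liver were 4 with 75th percentile scaling and 0 with Bonferroni adjustment, the slide block, no normalization or the arrays fitted alone. Members called lower were 4 without normalization and 0 with Bonferroni adjustment, 75th percentile scaling, quantile normalization within each organ, normexp or the arrays fitted alone. The probes called were 183 with Bonferroni adjustment, 16853 with 75th percentile scaling, 4785 with the slide block and 22311 without normalization. Without normalization the interaction turned to -0.69 for Cd40 and -2.29 for Icosl. Between the controls, Bonferroni adjustment gave 2 members higher, 0 lower and 5233 probes, and members called lower in the heart were 3 with 75th percentile scaling and 0 with normalization within each organ or none, where Icos turned to 0.26 and 1.60. Between the POD5 allografts, 2 members and 3062 probes were called with Bonferroni adjustment, and 9 and 30545 with normalization within each organ.

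The split of called probes moved with the scaling too. The share called higher in the heart was 47.1% in the interaction against 80.5% with 75th percentile scaling, 51.1% between controls against 31.6% with that scaling and 86.9% within each organ, and 56.7% between POD5 allografts against 92.0% within each organ.

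Leaving out 1 array at a time gave 5 to 6 members higher and 9009 to 11733 probes in the heart. It gave 6 to 7 higher, 0 to 1 lower and 3814 to 9034 probes at POD5, and 7 higher, 0 lower and 2622 to 7280 probes at POD8. Between POD8 and POD5 it gave 0 members and 11 to 130 probes, and for the interaction 0 to 2 higher, 0 to 1 lower and 4745 to 9146 probes. Between controls it gave 5 higher, 1 to 2 lower and 19220 to 22266 probes, and between POD5 allografts 4 higher and 11940 to 14104 probes. With the replicate block, although the numbers do not pair the arrays, 1 member was called lower at POD5 and 1 at POD8, 2 members were called higher in the interaction and 2 lower between controls. A block by scan was not run, since scans and slides coincide. The signal over background in the hepatic controls limits Cd28, Cd80, Cd27 and the below-background ligands, for which no size can be given beyond the bounds. The cause of these shifts was not tested.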
